A study of Mus musculus with 15 samples.

Results

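The genes described here encode proteins of the mitochondrial ribosome. They were chosen by name alone, as every gene whose symbol in the count files begins with Mrpl or Mrps and a digit. This gave 75 of 21025 gene entries. Mrpl57 and Mrpl58 stand under other symbols in the count files, so they fell outside the rule and were read with the partner genes. Of the 75 genes, 48 encode proteins of the large ribosomal subunit and 26 proteins of the small subunit. Mrps18a and Mrps30 carry small subunit names but are counted here with the large subunit, where their proteins sit. Mrps36, the remaining gene, is named after the small subunit but encodes a component of the oxoglutarate dehydrogenase complex. All 75 genes passed the filter on low counts that left 11979 genes for testing, and the smallest count of any of them in any library was 63 reads.

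Polyadenylated RNA was sequenced from lymph node cells that had been enriched for CD8 with magnetic beads, in 15 libraries from untreated mice aged 15 weeks. WT was the strain C57BL/6N, and each WT library pooled the nodes of 2 to 3 mice. The lines cS5Alo and cS5Ahi are known from the study, not from the labels, as transgenic mice that express a hyperactive STAT5A in blood cells at a lower and a higher level under the Vav1 promoter. Each genotype had 5 libraries. How many mice went into each cS5Alo or cS5Ahi library is not stated in the labels, and a p-value then covers just the spread among libraries. The description of cS5Ahi 1 names the other line, whereas its title and genotype give cS5Ahi, which was kept. Stat5a reads went with the labels, from 404 to 635 CPM (counts scaled by library size) in cS5Ahi, against 71.4 to 95.7 CPM in WT and 100.3 to 117 CPM in cS5Alo. All cS5Ahi libraries were on a flow cell of their own, so flow cell and genotype cannot be told apart for cS5Ahi.

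Mitochondria carry their own genome, which encodes a small set of subunits of the respiratory chain and of ATP synthase. These messages are translated inside the organelle by a ribosome whose RNA comes from the mitochondrial genome and whose proteins are all encoded in the nucleus, made in the cytosol and imported. Part of those proteins descend from the bacterial ribosome and part were added later in evolution. Activated T cells expand their mitochondria, and mitochondrial translation is known to be needed for their proliferation and effector function.

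Each library held 12177642 to 33948416 reads in genes, and the 75 genes took 33619 to 109040 of them, or 0.25 to 0.347%. The share of reads outside annotated genes was 23.0 to 30.2% of a library, except in WT 3 (39.8%), WT 4 (40.8%) and cS5Ahi 4 (36.8%). The 5 CD8 T cell markers tested summed to 5723 to 7731 CPM and none was called in cS5Ahi against WT. This list also holds Cd3 genes, which other T cells share, so the sum does not measure CD8 T cells alone. The 11 B cell markers summed to 84.7 to 159 CPM in cS5Ahi, against 101 to 331 CPM in WT and 158 to 255 CPM in cS5Alo, and 8 of them were lower in cS5Ahi than in WT. Of 5 dendritic cell markers 3 were lower. The 5 proliferation markers summed to 125 to 190, 72.6 to 166 and 50.6 to 142 CPM in the same order, with none called. CD4 T cell markers summed to 92.1 CPM in WT 5 and to at most 18.0 CPM elsewhere, and 1 of 3 was lower in cS5Ahi than in WT. No marker was at 0 in every library. In bulk RNA, fewer cells of a type and less RNA per cell cannot be told apart.

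The promoters of these genes shared short sequences that the choice by name did not use. RefSeq (GRCm38.p6) gave a window from 250 bases before to 50 bases after the start for 66 of the 75 genes, with 72 windows in all. The hexamer CCGGAA, the core recognised by ETS family factors, was present on either strand in 56.9% of these windows. It was present in 27.3% of the windows of the other tested genes and in 14.9% of all windows of this length. Of its 58 matches 34 began within 100 bases before the start, 18 after the start and 6 farther upstream. The NRF1 string, GCGC and TGCGC with any 1 base between them, named for a regulator of nuclear genes for mitochondrial proteins, was in 16.7% of the windows against 10.1% for the other tested genes and 4.6% of all. The YY1 core ATGGCGGC was in 16.7% against 4.77 and 2.24%. The longer YY1 string, that core with AAG before it, was in 6.94% against 1.48 and 0.633%.

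A further 5 strings were searched in the same windows. The STAT5 string TTCNNNGAA was in 6.94% of the windows, against 7.06% for the other tested genes and 8.3% of all. The MYC E-box CACGTG was in 9.72% against 9.95 and 7.15%, the string CCAAT in 40.3% against 37.6 and 37.4%, and the SP1 string GGGCGG in 51.4% against 61.1 and 35.7%. TATAAA was in 6.94% against 7.28 and 13.6%. These shares count letters on both strands and are no evidence of binding. The windows had a median GC content of 58.7%, against 60.3% for the other tested genes and 52.7% of all.

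The 150 bases before the start are shown for the genes whose levels passed a test between genotypes, except Mrpl19, which had no window in the table. Capitals mark matches to the ETS core, the NRF1 string or the YY1 core on either strand.
Mrps5: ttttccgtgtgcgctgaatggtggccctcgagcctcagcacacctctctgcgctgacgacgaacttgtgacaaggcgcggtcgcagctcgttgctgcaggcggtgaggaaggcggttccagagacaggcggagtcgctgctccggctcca
Mrps15: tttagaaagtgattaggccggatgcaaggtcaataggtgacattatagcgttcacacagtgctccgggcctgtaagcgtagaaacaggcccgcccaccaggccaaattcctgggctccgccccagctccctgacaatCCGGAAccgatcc
Mrps30: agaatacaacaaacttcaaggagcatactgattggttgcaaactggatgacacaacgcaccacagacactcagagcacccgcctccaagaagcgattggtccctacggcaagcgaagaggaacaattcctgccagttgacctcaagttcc
Mrps33: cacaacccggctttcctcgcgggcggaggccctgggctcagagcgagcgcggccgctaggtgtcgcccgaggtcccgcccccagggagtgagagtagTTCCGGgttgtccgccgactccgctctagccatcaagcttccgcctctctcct
In GRCm38.p6 these stretches lie at chr2:127587276-127587425 (plus strand) for Mrps5, chr4:126046778-126046927 (plus strand) for Mrps15, chr13:118387253-118387402 (minus strand) for Mrps30 and chr6:39810937-39811086 (minus strand) for Mrps33. Mrps15 and Mrps33 have 1 ETS core each here, and Mrps5 and Mrps30 have none of the 3 strings in this stretch. Over the whole window Mrps5 has 1 YY1 core, and Mrps30 has 1 ETS core and 1 YY1 core.

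For comparison, the same stretch is shown for the 4 genes with an ETS core here whose levels correlated most with the mean of the other mitochondrial ribosomal protein genes after each genotype's mean was subtracted. Mrpl1 and Mrps2, with the lowest correlations on that measure, follow them. Only genes with 1 window were eligible, which left out Mrps16 with its 2 windows. An ETS core was required of the 4 and not of Mrpl1 and Mrps2, so a contrast between them in this string is no result. Genes without an ETS core in this stretch were passed over, among them Mrpl23, Mrpl45 and Mrpl11, with correlations of 0.95, 0.94 and 0.93.
Mrpl52: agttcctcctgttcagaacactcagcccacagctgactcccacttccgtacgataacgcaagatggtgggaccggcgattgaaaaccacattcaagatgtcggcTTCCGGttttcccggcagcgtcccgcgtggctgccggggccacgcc
Mrpl30: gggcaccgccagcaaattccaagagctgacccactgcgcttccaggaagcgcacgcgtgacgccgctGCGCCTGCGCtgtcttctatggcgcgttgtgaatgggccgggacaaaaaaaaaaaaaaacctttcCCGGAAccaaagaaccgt
Mrpl34: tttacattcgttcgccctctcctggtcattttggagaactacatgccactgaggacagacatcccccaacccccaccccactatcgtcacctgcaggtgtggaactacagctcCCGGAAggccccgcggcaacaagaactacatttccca
Mrpl53: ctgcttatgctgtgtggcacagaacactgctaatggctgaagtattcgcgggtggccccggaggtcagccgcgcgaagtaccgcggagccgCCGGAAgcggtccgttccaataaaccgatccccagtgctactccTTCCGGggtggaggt
Mrpl1: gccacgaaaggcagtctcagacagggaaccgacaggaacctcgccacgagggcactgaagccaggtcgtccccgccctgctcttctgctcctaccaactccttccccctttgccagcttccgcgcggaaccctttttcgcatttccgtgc
Mrps2: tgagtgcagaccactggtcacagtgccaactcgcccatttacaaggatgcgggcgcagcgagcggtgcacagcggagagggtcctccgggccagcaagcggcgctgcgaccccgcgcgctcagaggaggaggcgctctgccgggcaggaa
They lie at chr14:54426759-54426908 (plus strand) for Mrpl52, chr1:37890327-37890476 (plus strand) for Mrpl30, chr8:71464776-71464925 (plus strand) for Mrpl34, chr6:83108958-83109107 (plus strand) for Mrpl53, chr5:96209965-96210114 (plus strand) for Mrpl1 and chr2:28467916-28468065 (plus strand) for Mrps2. Mrpl30 carries both an ETS core and the NRF1 string, Mrpl53 carries the ETS core on both strands, and Mrpl1 and Mrps2 carry no match in this stretch. Mrpl1 has 1 ETS core over its whole window. Over the whole window, 38 genes had an ETS core in at least 1 window and 28 had none. Their median log2 fold changes were 0.14 and 0.06 for cS5Ahi against WT, and 0.17 and 0.16 for cS5Alo against WT. Their median correlations after each genotype's mean was subtracted were 0.77 and 0.72. No test was made of this split.

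As a group, the mitochondrial ribosomal protein genes stood slightly higher in both transgenic lines than in WT, by less than the spread between libraries. The mean log2 CPM over the 75 genes was 4.94 ± 0.22 in WT, 5.13 ± 0.17 in cS5Alo and 5.11 ± 0.12 in cS5Ahi (SD, n = 5 each). In WT 1 to 5 the mean was 5.19, 4.86, 4.65, 4.86 and 5.14. In cS5Alo it was 5.21, 5.18, 5.12, 5.27 and 4.84, and in cS5Ahi 5.17, 4.93, 5.26, 5.05 and 5.13. WT 2, 3 and 4, cS5Alo 5 and cS5Ahi 2 were the low libraries, and the ranges of the genotypes overlapped. The difference from WT was 0.17 for cS5Ahi and 0.18 for cS5Alo, against pooled SDs of 0.18 and 0.20. cS5Ahi differed from cS5Alo by -0.02 with a pooled SD of 0.15. No p-value is given for this mean.

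**Figure D1:**
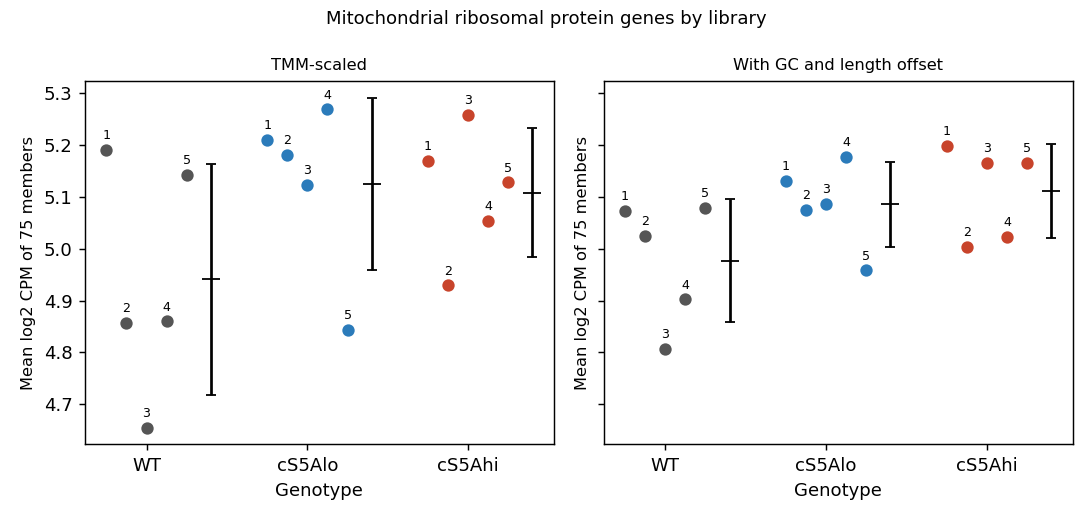
Mean log2 CPM of the 75 mitochondrial ribosomal protein genes in each library (numbered points) with the genotype mean ± SD (n = 5), scaled with TMM factors on the left and with an added offset for GC content and transcript length on the right. On the left cS5Ahi spans 4.93 to 5.26, WT 4.65 to 5.19 and cS5Alo 4.84 to 5.27, so the genotypes overlap.

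Single libraries decided the size of these differences. Without WT 3 the difference of cS5Ahi from WT was 0.0818, and without both WT 3 and WT 4 it was 0.0376. With library size as the sole scaling it was 0.0789. The difference of cS5Alo from WT was 0.101 without WT 3 and 0.0555 without WT 3 and 4, and ranged up to 0.247 when other single libraries were left out. The difference between the lines turned from -0.02 to between 0.0046 and 0.0240 without cS5Alo 1, cS5Alo 4 or cS5Ahi 2, and was -0.0874 without cS5Alo 5, -0.0539 without cS5Ahi 3 and -0.0321 without cS5Ahi 1.

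Levels were also averaged by subunit, and no test of a difference between the subunits was made. The large subunit mean was 4.93 ± 0.24 in WT, 5.12 ± 0.18 in cS5Alo and 5.12 ± 0.12 in cS5Ahi, and the small subunit mean 4.94 ± 0.19, 5.11 ± 0.15 and 5.06 ± 0.13. The median log2 fold change of cS5Ahi against WT was 0.15 for the large and 0.07 for the small subunit. In cS5Alo against WT these medians were 0.17 for both, with 93.8% of large and 73.1% of small subunit genes above 0. There 3 of 48 large and 6 of 26 small subunit genes had an unadjusted p under 0.05, all higher. These are 6.25 and 23.1%, against 11.3% of all genes tested in either direction and 5.37% higher. The 47 genes with a counterpart in the bacterial ribosome had a median log2 fold change of 0.15 in cS5Ahi against WT, and the 27 without one 0.09. In cS5Alo against WT these medians were 0.17 and 0.15. By the order of group means, WT was the lowest group for 57 of the 75 genes. Among these cS5Alo had the highest mean for 30 and cS5Ahi for 27, or 40 and 36%, against 14.6 and 23.8% of all genes tested.

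The first comparison, cS5Ahi against WT, concerns the line with the high Stat5a level. Mrpl19, Mrps5, Mrps15 and Mrps30 rose, no gene of the group fell, and 71 were not called. The calls made up 5.33% of the group, under the 14.1% of all genes tested that the edgeR quasi-likelihood test called in this comparison (6.88% higher and 7.25% lower). At an unadjusted p under 0.05 there were 14 genes, 13 of them higher, or 18.7% against 26.6% of all genes. The higher genes alone made up 17.3%, against 13.1% of all genes. In sign alone, 57 of the 75 (76%) were above 0 against 50.1% of all genes, with a median log2 fold change of 0.12. Fold changes ran from -0.35 for Mrps26 to 0.51 for Mrpl44, and none reached 1.5-fold. With library size as the sole scaling, 1 gene rose (Mrpl19) and 1 fell (Mrps6), 40 were above 0 and the median was 0.03. That scaling moved the split over all genes from 824 higher of 1692 called to 603 higher of 1780. Under TMM scaling without WT 3 and 4 together, 42 of the 75 were above 0 and the median was 0.03. Most of the 75 genes moved together across libraries, as described below, so their signs are not separate observations.

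**Figure D2:**
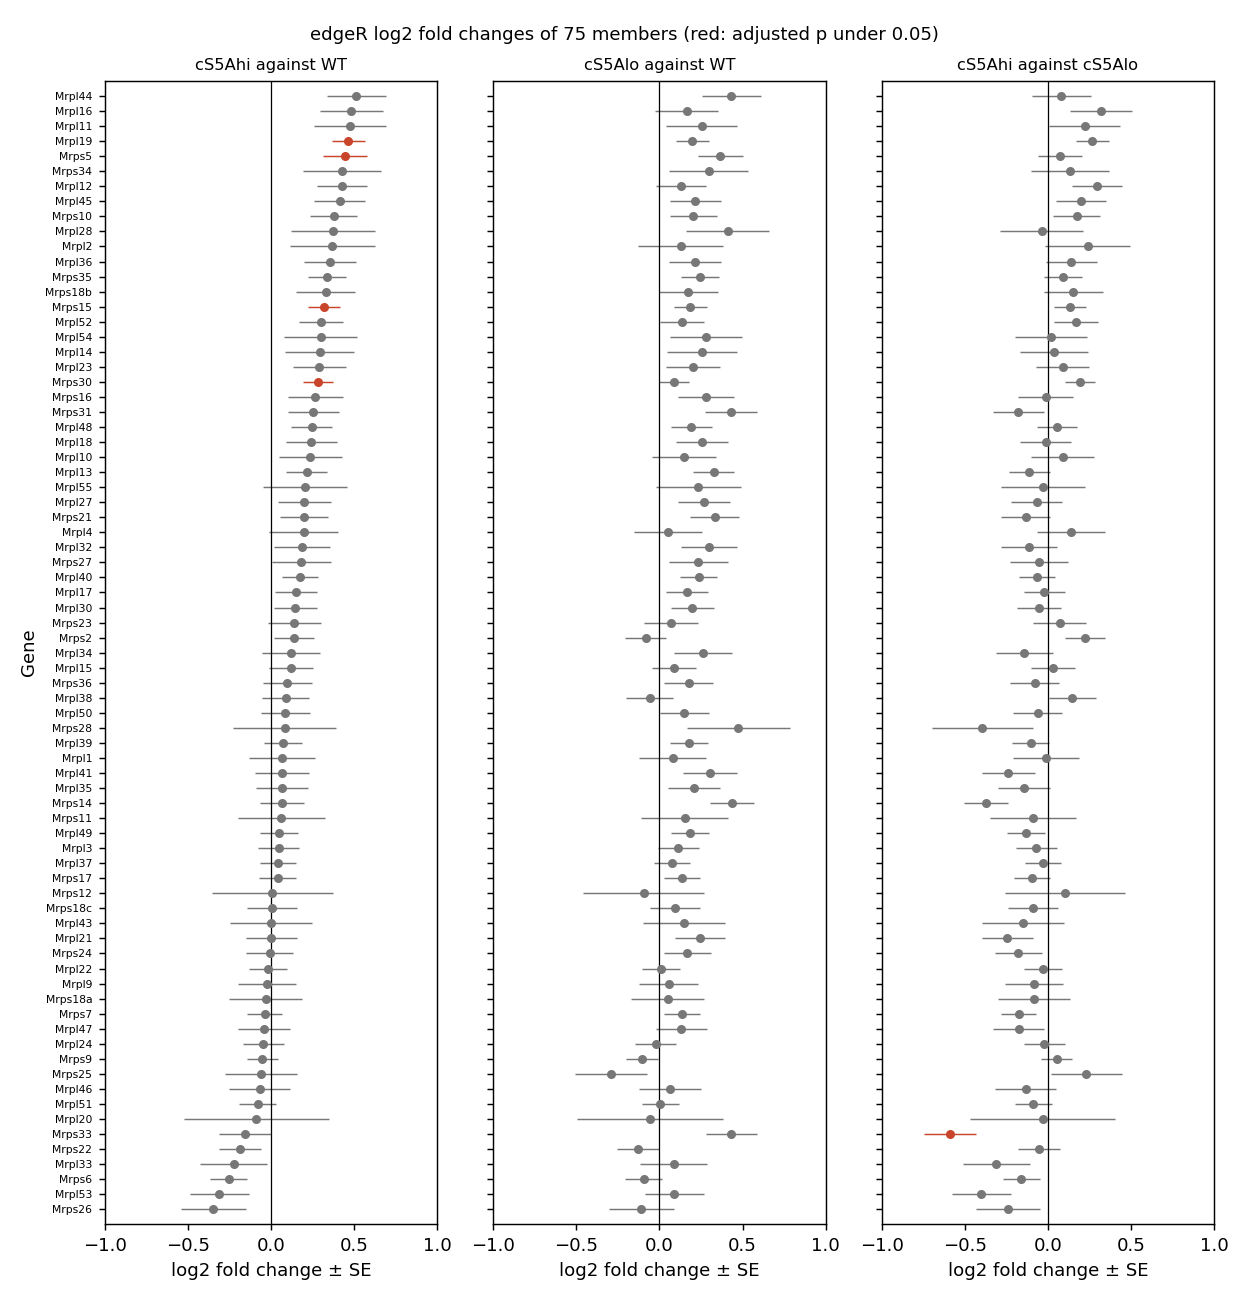
edgeR log2 fold change ± SE of each mitochondrial ribosomal protein gene in the 3 comparisons, sorted by cS5Ahi against WT, with red points for an adjusted p under 0.05. Points lie mostly to the right of 0 against WT and on both sides of 0 in cS5Ahi against cS5Alo, and 4, 0 and 1 of the 75 points are red.

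Mrpl19 encodes a large subunit protein with a bacterial counterpart. Its CPM was 29.5, 30.9, 31.8, 28.7 and 36.3 in WT, 34, 35.9, 37.6, 38.4 and 34.6 in cS5Alo, and 45.9, 38.4, 46.8, 40.5 and 45.5 in cS5Ahi. Every cS5Ahi library was above every WT library, and cS5Alo lay between, overlapping WT. The log2 fold change of cS5Ahi against WT was 0.47 ± 0.10 (SE; edgeR quasi-likelihood test, Benjamini-Hochberg adjusted p = 0.00278). It was 0.20 ± 0.10 for cS5Alo against WT and 0.27 ± 0.10 for cS5Ahi against cS5Alo (edgeR adjusted p = 0.461 and 0.105). Exons of Mrpl19 overlap those of Gcfc2 on the other strand in GENCODE, and without a known strand setting their reads cannot be told apart.

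Mrps30 was the other gene whose cS5Ahi and WT libraries did not overlap. Its protein belongs to the large subunit and has no bacterial counterpart. The CPM was 54.7, 57.5, 48.0, 46.8 and 53.4 in WT, 54.2, 49.96, 53.9, 60.02 and 58.9 in cS5Alo, and 66.9, 62.6, 65.5, 61.4 and 60.1 in cS5Ahi. The cS5Ahi libraries were also all above the cS5Alo libraries, while cS5Alo overlapped WT. The log2 fold change of cS5Ahi against WT was 0.28 ± 0.09 (edgeR adjusted p = 0.0468), and against cS5Alo 0.19 ± 0.09 (edgeR adjusted p = 0.226). Mrps30 and Mrpl19 make up 2.67% of the group, against 10.5% of all genes without overlap of these ranges (5.98% higher and 4.47% lower). An exon overlap with B430218F22Rik on the other strand limits the count of Mrps30 in the same way.

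Mrps5 and Mrps15 encode small subunit proteins with bacterial counterparts. Mrps5 had 19.1, 23.9, 20.5, 17.8 and 26.4 CPM in WT, 31.2, 24.1, 27.9, 30.0 and 26.1 CPM in cS5Alo, and 32.6, 24.9, 33.1, 24.9 and 31.3 CPM in cS5Ahi. WT 5 lay above cS5Ahi 2 and 4, and the transgenic lines covered like ranges. The log2 fold change was 0.44 ± 0.13 for cS5Ahi against WT (edgeR adjusted p = 0.0304) and 0.37 ± 0.13 for cS5Alo against WT (edgeR adjusted p = 0.332). Mrps15 had 82.2, 83.2, 75.8, 76.9 and 76.5 CPM in WT, 92.1, 78.4, 94.2, 97.2 and 86.8 CPM in cS5Alo, and 109, 82.4, 101, 108 and 90.4 CPM in cS5Ahi. cS5Ahi 2 was the only cS5Ahi library within the WT range. Its log2 fold change was 0.32 ± 0.10 for cS5Ahi against WT (edgeR adjusted p = 0.0359).

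**Figure D3:**
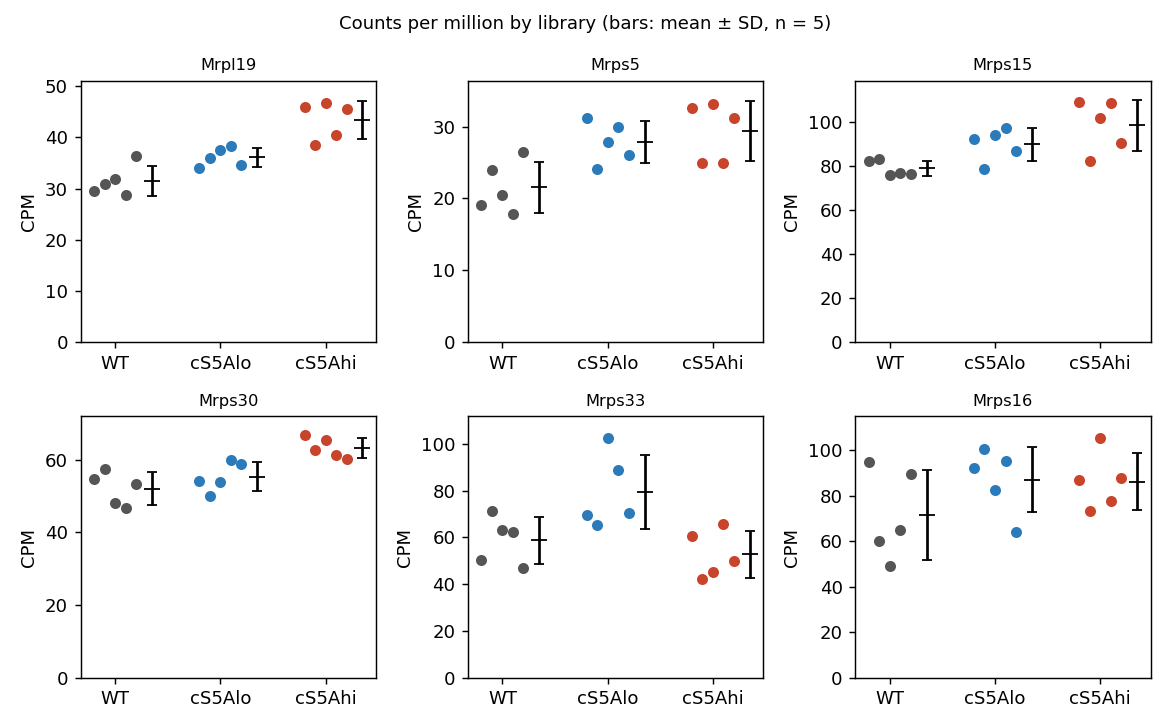
CPM by library (points) with the mean ± SD (n = 5) for the 5 genes called in a comparison and for Mrps16, the gene most correlated with the mean of the others. The cS5Ahi points of Mrpl19 and Mrps30 lie above all WT points, those of Mrps33 lie below 66 CPM with cS5Alo reaching 102 CPM, and those of Mrps16 overlap WT.

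The call of Mrpl19 held without each single library (edgeR adjusted p = 0.00129 to 0.00987), and was lost with the summed B cell markers as a covariate (log2 fold change 0.42, edgeR adjusted p = 0.168). Leaving out WT 1, 3 or 4 or cS5Ahi 1, 3 or 5 ended the call of Mrps5, and that of Mrps15 ended without WT 3, 4 or 5, cS5Alo 3 or cS5Ahi 1, 3 or 4. Leaving out any library except WT 2 ended the call of Mrps30. Over these the largest edgeR adjusted p was 0.0818 for Mrps5, 0.102 for Mrps15 and 0.132 for Mrps30. With the B cell covariate the log2 fold changes were 0.19 for Mrps5 (edgeR adjusted p = 0.722), 0.23 for Mrps15 (0.528) and 0.15 for Mrps30 (0.692). No gene of the group was then called, and over all genes tested the share called fell from 14.1% to 3.8%. Without WT 3 and 4 together the edgeR adjusted p was 0.185, 0.162 and 0.282 in that order. The count of called genes was 1 without WT 3, cS5Ahi 1 or cS5Ahi 3, 2 without WT 4, cS5Alo 3 or cS5Ahi 5, and 6 without WT 5.

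Mrpl44 and Mrps35 were the next genes by adjusted p. Mrpl44, a large subunit protein with a ribonuclease fold, had 27.7, 20.4, 17.5, 21.7 and 35.3 CPM in WT and 37.5, 35.8, 40.2, 26.8 and 35 CPM in cS5Ahi. The ranges overlapped, with WT 5 high and cS5Ahi 4 low in its group, and the log2 fold change of 0.51 ± 0.18 had an edgeR adjusted p of 0.0606. It passed without WT 5 and without cS5Ahi 4. For the small subunit gene Mrps35 the log2 fold change was 0.34 ± 0.11 (edgeR adjusted p = 0.0579), which passed without WT 4 or cS5Alo 4. Mrps26 had the lowest value, -0.35 ± 0.20 (edgeR adjusted p = 0.278), with 11 to 28 CPM in WT and 11.7 to 16.9 CPM in cS5Ahi.

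The 3 paralogues of bacterial protein S18 differed in their fold changes without passing a test. Mrps18b, which sits in the small subunit, had a log2 fold change of 0.33 ± 0.18 in cS5Ahi against WT (edgeR adjusted p = 0.26) and 0.17 ± 0.18 in cS5Alo. Mrps18a, in the large subunit, had -0.03 ± 0.22 and 0.05 ± 0.22, and Mrps18c, in the small subunit, 0.0041 ± 0.15 and 0.09 ± 0.15. The signs for Mrps18a and Mrps18c turned under several settings. Mrps36, which is not part of the ribosome, had 0.10 ± 0.15 and 0.18 ± 0.15.

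The second comparison, cS5Alo against WT, concerns the line with the low Stat5a level. No gene of the group was called, as for all genes tested (0%), by the edgeR quasi-likelihood test. At an unadjusted p under 0.05 there were 9 genes, all higher, or 12% against 11.3% of all genes in either direction and 5.37% higher. DESeq2 and voom called 0 of the group, with 93 and 0 called over all genes. In sign, 65 of 75 (86.7%) were above 0 against 49.9% of all genes, with a median log2 fold change of 0.17. In no gene were the ranges free of overlap, against 1.71% of all genes (0.993% higher and 0.718% lower). Within lane 3 of the shared flow cell, which held WT 3 to 5 and all cS5Alo libraries, 67 were above 0 and none was called. The median there was 0.24, against 0.009 over all genes. Lane 3 leaves out WT 1 and 2 and keeps WT 3 and 4, which were low in the group mean. WT 3 and 4 had 39.8 and 40.8% of reads outside genes. Without WT 3 and 4 together, over both lanes, 51 were above 0 and the median was 0.05.

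The genes nearest to the threshold in cS5Alo against WT were Mrps14, Mrps33, Mrps31, Mrps5, Mrpl13 and Mrpl44, with log2 fold changes of 0.33 to 0.44. Mrps14, a small subunit protein with a bacterial counterpart, had 38.2, 35, 29.4, 25.6 and 32.8 CPM in WT, 41.8, 44.8, 48.5, 49.6 and 33.5 CPM in cS5Alo, and 36.6, 30.8, 38.2, 28.9 and 34.1 CPM in cS5Ahi. cS5Alo 5 was the only cS5Alo library within the WT range, and cS5Ahi covered about the same range as WT. The log2 fold change was 0.44 ± 0.13 for cS5Alo against WT (edgeR adjusted p = 0.268) and -0.37 ± 0.13 for cS5Ahi against cS5Alo (edgeR adjusted p = 0.0865; 0.0307 without cS5Alo 5). The highest value was that of Mrps28, 0.47 ± 0.31, and the lowest that of Mrps25, -0.29 ± 0.22.

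Between the transgenic lines, Mrps33 was lower in cS5Ahi and no other gene of the group was called. That is 1.33% of the group, against 8.64% of all genes tested (4.87% higher and 3.77% lower). At an unadjusted p under 0.05 there were 5 genes, 2 higher and 3 lower, or 6.67% against 21.6% of all genes (11% higher). In sign, 29 of 75 (38.7%) had a log2 fold change above 0 against 49.2% of all genes. Mrpl19 and Mrps30 did not overlap between the lines, with cS5Ahi higher, against 10.8% of all genes without overlap (5.85% higher and 4.9% lower). Values ran from -0.59 for Mrps33 to 0.32 for Mrpl16, with a median of -0.03. This comparison shares its libraries with both comparisons against WT.

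Mrps33 encodes a small subunit protein without a bacterial counterpart. It had 50.2, 71.5, 63.1, 62.2 and 47.0 CPM in WT, 69.7, 65.2, 102, 88.8 and 70.6 CPM in cS5Alo, and 60.8, 42.4, 45.3, 65.7 and 49.8 CPM in cS5Ahi. cS5Alo 3 and 4 were the highest of all libraries, cS5Ahi 4 lay just above cS5Alo 2, and WT overlapped both lines. The log2 fold change of cS5Ahi against cS5Alo was -0.59 ± 0.16 (edgeR quasi-likelihood test, adjusted p = 0.0212). Against WT it was 0.43 ± 0.16 for cS5Alo and -0.16 ± 0.16 for cS5Ahi (edgeR adjusted p = 0.329 and 0.585). The call was lost without cS5Alo 3 or 4 or cS5Ahi 2, 3 or 5 (edgeR adjusted p up to 0.0694), with the B cell covariate (0.0503) and with the proliferation covariate (0.159). Without cS5Alo 5 the count in this comparison was 2, Mrps14 and Mrps33.

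Across the 15 libraries most of these genes moved together. The correlation of a gene's log2 CPM with the mean of the others had a median of 0.71, and of 0.75 after each genotype's mean was subtracted. The other tested genes had a median of 0.03 and 0.05 with that mean. The first principal component held 64.0% of the variance of the group and 33.8% of that of all genes tested. Within genotypes 49 genes had a correlation above 0.5 and 11 one below 0. The points share their library, depth and scaling factor, so these are descriptions. Mrps16, a small subunit protein with a bacterial counterpart, was the most alike, with a correlation of 0.97 within genotypes. It had 94.8, 60.3, 48.9, 64.8 and 89.8 CPM in WT, 92.5, 100.5, 82.7, 95.4 and 64.3 CPM in cS5Alo, and 87.0, 73.2, 106, 77.6 and 88.1 CPM in cS5Ahi. Its lowest libraries were WT 2, 3 and 4 and cS5Alo 5.

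**Figure D4:**
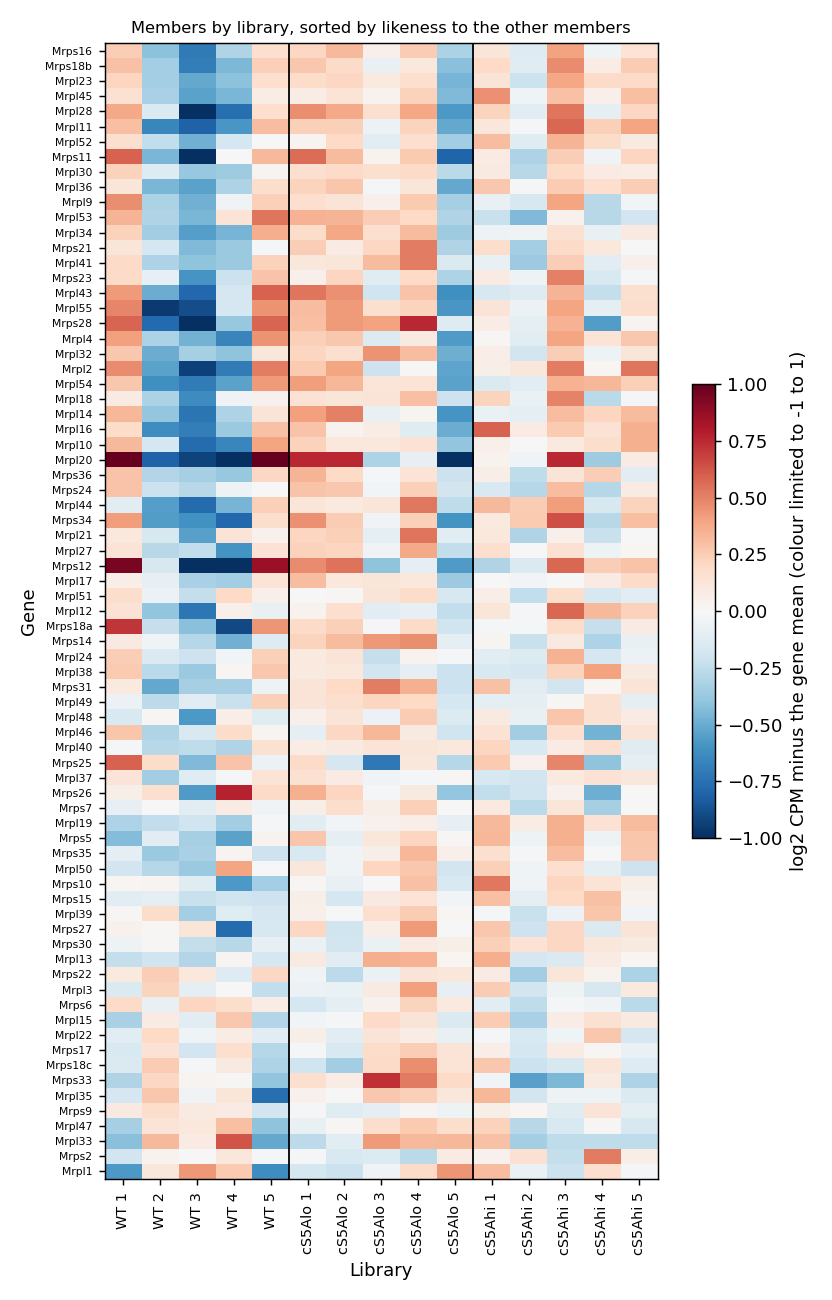
log2 CPM of each of the 75 genes (rows) in each library (columns) minus the gene's mean, with colours limited to -1 to 1 and rows sorted by likeness to the other genes. WT 2, 3 and 4 and cS5Alo 5 are blue through most of the upper rows, and the 11 genes with a correlation below 0 within genotypes are at the bottom.

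Mrpl1 and Mrps2 went the other way within genotypes, with correlations of -0.78 and -0.57. Mrpl1, a large subunit protein with a bacterial counterpart, had 8.88, 14.3, 17.9, 15.9 and 8.57 CPM in WT, 11.7, 11.4, 12.9, 15.1 and 18.0 CPM in cS5Alo, and 16.4, 12.6, 11.4, 14.9 and 13.1 CPM in cS5Ahi. It was highest in WT 3 and cS5Alo 5, where the mean of the group was lowest. Mrpl20, the most variable gene of the group in each genotype and named after its values were seen, had 21.5, 5.75, 5.30, 5.00 and 21.6 CPM in WT. In cS5Alo it had 17.1, 17.2, 8.14, 9.56 and 4.91 CPM, and in cS5Ahi 10.4, 9.80, 17.2, 7.91 and 10.7 CPM. Its WT libraries fell into a high pair, WT 1 and 5, and a low remainder, as in the mean. The median SD of log2 CPM over the group was 0.31 in WT, 0.23 in cS5Alo and 0.21 in cS5Ahi, against 0.33, 0.24 and 0.21 over all genes.

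Transcripts of these genes are short, and other short transcripts moved with them. The median transcript length was 1226 bases against 2874.5 for all genes tested, while the median GC content was 50.9 against 50.2%. Of the 75, 52 were in the class of short transcripts, at most 1851 bases. The mean deviation of the group in a library and that of the 2902 other genes of that class had a correlation of 0.89 over the 15 libraries, and the class of highest GC, from 54.8%, gave 0.66. WT 3 had the lowest group deviation, -0.403, with -0.202 for the other short transcripts. cS5Ahi 1 and 5 were above 0 for the group, at 0.112 and 0.0699, and below 0 for the other short transcripts.

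**Figure D5:**
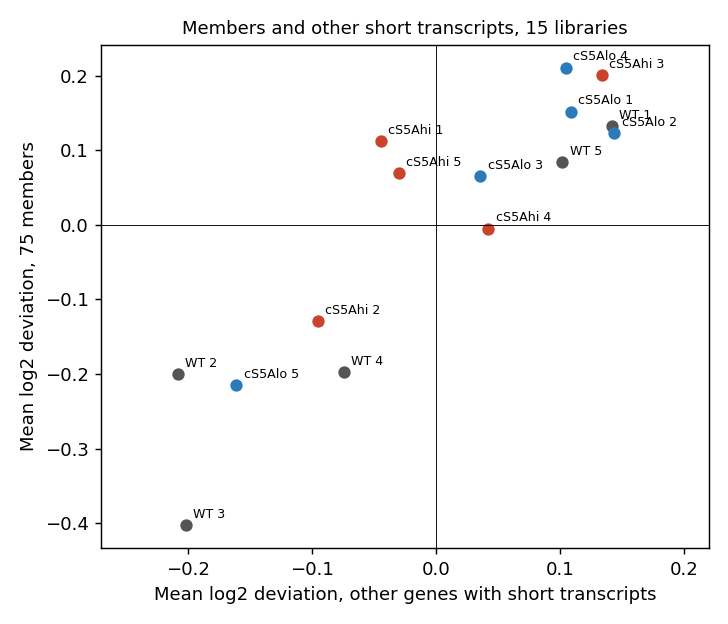
Mean deviation from each gene's mean log2 CPM in each library for the 2902 other genes with short transcripts (horizontal) and the 75 mitochondrial ribosomal protein genes (vertical), coloured by genotype. WT 2, 3 and 4, cS5Alo 5 and cS5Ahi 2 are below 0 on both axes, while cS5Ahi 1 and 5 are above 0 on the vertical axis alone.

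With an offset for GC content and transcript length, fitted per library and added after the data had been seen, the spread of the group narrowed and its calls changed. The range of the group mean over the libraries went from 0.613 to 0.391 on the log2 scale, the first component from 64.0 to 50.2% and the median correlation within genotypes from 0.75 to 0.49. The difference from WT became 0.134 for cS5Ahi and 0.109 for cS5Alo, with means of 4.98 ± 0.12 in WT, 5.09 ± 0.08 in cS5Alo and 5.11 ± 0.09 in cS5Ahi. In cS5Ahi against WT 10 genes (13.3%) were called, against 18.4% of all genes tested under the same offset, with Mrpl12, Mrpl16, Mrpl19, Mrpl36, Mrpl44, Mrpl45, Mrps5, Mrps18b and Mrps35 higher and Mrpl53 lower. Mrps15 and Mrps30 were not (edgeR adjusted p = 0.142 and 0.108). Mrpl12 and Mrps33 were called between the lines (2.67%, against 11.8% of all genes) and none in cS5Alo against WT. The difference between the lines was 0.0256, opposite in sign to the value without the offset.

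Genes that work with the mitochondrial ribosome were read from 6 lists with 116 tested genes. In cS5Ahi against WT 8 rose and none fell, or 6.9% higher against 6.88% of all genes tested. Of the 116, 83 (71.6%) had a log2 fold change above 0, against 50.1% of all genes. In cS5Alo against WT the edgeR quasi-likelihood test called 0 of them, with 18 (15.5%) at an unadjusted p under 0.05, all higher, where 11.3% of all genes passed in either direction and 5.37% were higher. In cS5Ahi against cS5Alo it called 2, Malsu1 and Tefm, both higher, or 1.72% against 8.64% of all genes (4.87% higher). The mean log2 CPM over the 116 genes was 4.51 to 4.65 in cS5Ahi, against 4.30 to 4.51 in WT and 4.5 to 4.69 in cS5Alo.

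The largest changes were in assembly and transcription factors. Malsu1, which keeps the subunits apart during assembly of the large subunit, had 6.45, 7.36, 5.79, 6.19 and 6.96 CPM in WT, 8.36, 9.31, 10.6, 9.66 and 7.71 CPM in cS5Alo, and 14.9, 12.3, 8.70, 16.1 and 19.7 CPM in cS5Ahi. WT was below both lines in every library, and cS5Ahi 3 lay within the cS5Alo range. The log2 fold change was 1.13 ± 0.19 for cS5Ahi against WT (edgeR adjusted p = 0.000301), 0.65 ± 0.18 for cS5Ahi against cS5Alo (edgeR adjusted p = 0.029) and 0.47 ± 0.19 for cS5Alo against WT (edgeR adjusted p = 0.366). The call between the lines was lost without cS5Alo 1, 2, 4 or 5 or cS5Ahi 1, 4 or 5 (edgeR adjusted p up to 0.108), and with the B cell covariate (0.399). Tefm, the elongation factor of mitochondrial transcription, had 9.28, 6.99, 5.72, 6.43 and 8.24 CPM in WT, 9.74, 9.17, 12.4, 11.7 and 8.19 CPM in cS5Alo, and 18.5, 16.2, 15.7, 14.9 and 14.8 CPM in cS5Ahi. Every cS5Ahi library was above every other library. Its log2 fold change was 1.12 ± 0.16 against WT (edgeR adjusted p = 6.48e-05) and 0.65 ± 0.16 against cS5Alo (edgeR adjusted p = 0.0122). The latter call was lost with the B cell covariate (edgeR adjusted p = 0.159) and with the proliferation covariate (0.0993).

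The other called genes changed less. Of 7 ribosomal proteins outside the naming rule Chchd1, a small subunit protein, rose in cS5Ahi against WT (0.60 ± 0.15, edgeR adjusted p = 0.00971). Of 27 assembly factors Trub2, a pseudouridine synthase, and Gtpbp10, a GTPase of large subunit assembly, rose beside Malsu1 (0.51 ± 0.13 and 0.50 ± 0.16, edgeR adjusted p = 0.0139 and 0.046). Of 25 genes of mitochondrial RNA synthesis and processing Prorp, the nuclease subunit of mitochondrial RNase P, rose beside Tefm (0.56 ± 0.17, edgeR adjusted p = 0.0271). Of 21 import and folding genes Hspe1, the mitochondrial chaperonin cofactor, and Phb2, a prohibitin of the inner membrane, rose (0.70 ± 0.16 and 0.32 ± 0.09, edgeR adjusted p = 0.00471 and 0.03). Of 16 translation factors 3 had an unadjusted p under 0.05, and of 20 aminoacyl-tRNA synthetases 2, or 18.8 and 10%, against 26.6% of all genes. None of either list was called by the edgeR quasi-likelihood test. The elongation factor Gfm1 came nearest (0.32 ± 0.11, edgeR adjusted p = 0.0524), ahead of the synthetase Wars2 (0.32 ± 0.12, 0.0976).

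The call of Gtpbp10 was lost when WT 2, 4 or 5, cS5Alo 2 or 4, or cS5Ahi 1, 2, 4 or 5 was left out (edgeR adjusted p up to 0.126). Prorp lost its call when WT 1, 3 or 4 or cS5Ahi 1, 2 or 4 was left out (up to 0.0772), and Phb2 when WT 2, 3 or 4 or cS5Ahi 1, 3, 4 or 5 was (up to 0.1). All 3 calls were lost without WT 3 and 4 together (edgeR adjusted p = 0.0718, 0.147 and 0.196), which also ended those of Chchd1 and Trub2 (0.0796 and 0.0868). With the B cell covariate Tefm alone of the 8 was called, and the share of all genes called was 3.8% against 14.1% without it. Prorp then had a log2 fold change of 0.17 (edgeR adjusted p = 0.793). Without WT 5 the count was 15, and without cS5Ahi 1 it was 5.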

How the data were processed

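Polyadenylated RNA of CD8-selected lymph node cells was measured in 15 libraries, grouped by the title and genotype of their labels. The values are read counts per gene as the authors deposited them, without normalisation. Per the submitters' processing notes, the tools were cutadapt, TopHat 1.4.1 and HTSeq 0.6.1p1 and the build mm9. The sources used here do not give the strand setting. The 5 summary entries of each file stayed out of library sizes and tests.

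Low genes were removed with filterByExpr by genotype, at a minimum count of 10 and a minimum total of 15. Counts were scaled with TMM factors and fitted over all 15 libraries with robust quasi-likelihood in edgeR 4.0.16 under R 4.3.3, with limma 3.58.1 for voom and DESeq2 1.42.0 as alternatives. Calls needed an adjusted p under 0.05 (Benjamini-Hochberg, over all genes tested). For log2 CPM a prior count of 2 was added. The fit was tested on simulated counts. Libraries that share a number did not deviate together (correlations -0.32 to 0.20 over all genes), so no pairing was used. Counts of libraries within a genotype differed by more than sampling noise.

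The genes and lists were chosen with earlier results of these data known. Named by rule in each comparison were genes called, the nearest to the threshold up to 6, those with ranges that did not overlap in cS5Ahi against WT, the highest and lowest fold change, Mrps18a, Mrps18b, Mrps18c, Mrps30 and Mrps36, and up to 3 called genes of each partner list. Members were assigned to subunits by hand. Markers of B cells, CD8 and CD4 T cells, dendritic cells, monocytes and proliferation were summed per library; for monocytes 4 of 5 markers were tested, none was called, and the sums were 3.24 to 27.4 CPM in cS5Ahi, against 3.32 to 56.1 CPM in WT and 8.98 to 20.4 CPM in cS5Alo. Transcript lengths and GC content came from GENCODE transcripts, matched by RefSeq accession. Exon overlaps and neighbours came from GENCODE and promoters from RefSeq GRCm38.p6, matched by symbol. In GENCODE 22 of the 75 genes (29.3%) shared exon sequence with another named protein-coding gene, against 15% of all, and 18 (24%) had a divergent neighbour starting within 1000 bases, against 7.15%. As the counts are on mm9, no position of a counted gene is given.

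The alternatives were other scaling, no filter, DESeq2, voom with quality weights, fits on the compared groups, a replicate block, each library left out, WT 3 and 4 left out, B cell and proliferation scores as covariates, lane 3 alone and the offset for GC content and length. Each score was the mean log2 CPM of its markers in a library.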

Additional observations from a re-analysis of the deposited data

Results flagged for a closer look

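A library stood apart from the other 4 of its genotype in 2 of 93 groups of 5 tested, where chance flags about 1 group in 20. Mrpl53, a large subunit protein, was at 15.3 CPM in cS5Alo 5, and the nearest cS5Alo library was at 21.7 CPM. Phb2 was at 112 CPM in cS5Ahi 2, and the nearest cS5Ahi library was at 127 CPM. Both libraries were also the lowest of their genotype in the mean of the mitochondrial ribosomal protein genes.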

How the results depend on the processing

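Of 1713 values of named genes under other settings, 1523 kept their direction and side of the threshold, 121 lost a call, 26 gained one and 43 turned direction. The count of mitochondrial ribosomal protein genes called in cS5Ahi against WT (4) was 2 with library size alone or voom, 1 in the fit on the compared groups, without WT 3 and 4 together or with the proliferation covariate, 0 with the B cell covariate, and 10 with the GC and length offset; no filter and DESeq2 size factors gave 3 and the DESeq2 test 6. In cS5Ahi against cS5Alo (1) it was 2 with library size alone or the offset, 4 with voom and 0 with either covariate. Leaving out single libraries gave 1 to 6 and 0 to 2. In cS5Alo against WT it was 0 under every setting run. The count of partner genes in cS5Ahi against WT (8) was 13 with the DESeq2 test, 3 without WT 3 and 4, 1 with the B cell covariate and 16 with the offset, and 5 to 15 without single libraries. In cS5Ahi against cS5Alo (2) it was 11 with voom, 1 with either covariate and 4 with the offset, and 1 to 2 without single libraries. Without single libraries the difference in mean log2 CPM ranged from 0.0818 to 0.230 for cS5Ahi against WT, from 0.101 to 0.247 for cS5Alo against WT and from -0.0874 to 0.0240 between the lines. The covariates differ between genotypes and take up part of the genotype difference. Over all genes tested, the share called in cS5Ahi against WT fell from 14.1% to 3.8% with the B cell covariate and 10.2% with the proliferation covariate. Between the lines it fell from 8.64% to 3.91 and 4.67%.

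Replicate numbers did not pair the libraries. With the replicate block 1 gene of the group was called in cS5Ahi against WT (Mrpl19) and 1 between the lines (Mrps33), and 5 and 1 partner genes; 0 libraries correlated best with their own number across groups. Under the block the log2 fold changes of Mrps18a and Mrps18c in cS5Ahi against WT were 0.0342 and -0.00019.

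Other log2 fold changes that turned direction were small and not called, and the cause was not tested. For Mrps18c in cS5Ahi against WT they were -0.00766 with DESeq2 size factors, -0.0834 with library size alone, -0.00646 with the DESeq2 test, -0.0516 with voom, -0.00435 on the compared groups, -0.230 with the B cell covariate, -0.0572 with the proliferation covariate and -0.0984 with the offset. For Mrps18c in cS5Alo against WT they were -0.00351 with voom and -0.0954 with the offset. For Mrps18a in cS5Ahi against WT they were 0.103 with voom and 0.0455 with the B cell covariate, in cS5Alo against WT -0.277 without WT 3 and 4 and -0.0293 with the offset, and between the lines 0.0079 with the offset. Wars2 in cS5Alo against WT had -0.0103 with library size alone, -0.0300 with voom and -0.0038 with the B cell covariate. Without WT 3 and 4, Mrps36 had -0.0703 in cS5Ahi against WT, and Mrps18b and Mrps30 -0.0596 and -0.0024 in cS5Alo against WT. Mrps36 had 0.0050 between the lines with the offset, and Gfm1 had -0.0357 between the lines with the B cell covariate. Leaving out single libraries gave -0.194 to 0.198, -0.112 to 0.280 and -0.144 to -0.0275 for Mrps18a in cS5Ahi against WT, cS5Alo against WT and between the lines, and -0.0741 to 0.0823, -0.0243 to 0.183 and -0.177 to 0.0310 for Mrps18c. Wars2 in cS5Alo against WT had -0.0303 to 0.0886.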
